A study of Homo sapiens with 6 samples.

Results

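Genes of the respiratory chain of both genomes were followed in H226 cells after knockdown of the lncRNA *SWINGN*. Members were taken by a rule on gene names, chosen with earlier results of these data known. They are the names that begin with NDUFA, NDUFB, NDUFC, NDUFS, NDUFV, UQCR or ATP5, the COX4I, COX5, COX6, COX7 and COX8 families, *SDHA* to *SDHD*, and the names that begin with MT-ND, MT-CO, MT-CY or MT-ATP. This rule took 147 of 17222 gene names, of which 136 passed the filter on low counts. They were 79 nuclear genes of subunits (77 tested), the 13 protein-coding genes of the mitochondrial genome (all tested), 9 assembly or coupling factors (*NDUFAF1* to *NDUFAF7*, *ATP5S* and *ATP5SL*), 43 names of pseudogenes (35 tested), 2 antisense transcripts (1 tested) and the retrocopy *ATP5L2*. The table uses the older ATP5 names, in which *ATP5G1*, *ATP5G2* and *ATP5G3* are the c subunit genes now called ATP5MC1, ATP5MC2 and ATP5MC3.

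In mitochondria, complexes I and II pass electrons from NADH and succinate to coenzyme Q, complex III passes them on to cytochrome c and complex IV to oxygen. Complexes I, III and IV pump protons in doing so, and complex V, the ATP synthase, makes ATP from the resulting gradient. Complex II is encoded wholly in the nucleus, whereas the other complexes combine nuclear subunits with a few hydrophobic ones made from the circular mitochondrial DNA. Tumor lines such as this one vary in how far they rely on this chain or on glycolysis.

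H226 cells are a line grown from a squamous carcinoma of the human lung. They were transfected with ASO_CTRL, a control antisense oligonucleotide, or with ASO_LINC, an antisense oligonucleotide against *SWINGN* (LINC00565), and RNA was taken 48 h later, with 3 libraries per condition. Both conditions are otherwise the same line, and 1 oligonucleotide stands for the knockdown, so an effect of that oligonucleotide apart from its target cannot be told apart from the depletion. The level of *SWINGN* itself was not analysed here. The study describes its experiments in general as biological triplicates, while the labels of these libraries name no separate cultures, so p-values measure the spread between these libraries, which may be technical. Levels are given as CPM (read counts scaled to a common library size by edgeR's TMM method), and a gene was called changed at an adjusted p-value below 0.01 with a log2 fold change (ASO_LINC over ASO_CTRL) beyond 0.5, from edgeR's quasi-likelihood test with Benjamini-Hochberg adjustment over 14660 genes. Every adjusted p of a gene below comes from that test. SE is an approximate standard error, the size of the log2 fold change divided by the square root of the F statistic of that test.

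For the 6 nuclear subunit genes called lower, the 250 bases before the start of each are shown to let a reader see what they share. The sequences are from RefSeq (GRCh38.p14), on the strand of the gene, and end at the base before the start. Capitals mark matches, on either strand, to the letters GCGCATGC (core of the nuclear respiratory factor 1 site), CCGGAAG (ETS factors), AAGATGGC (*YY1*) or ACGTG (hypoxia response element). They lie at chr17:48892537-48892786 (plus strand, *ATP5G1*), chr12:53676084-53676333 (minus, *ATP5G2*), chr1:111449214-111449463 (plus, *ATP5F1*), chr5:132866392-132866641 (plus, *UQCRQ*), chr12:95003698-95003947 (minus, *NDUFA12*) and chr5:140647631-140647880 (minus, *NDUFA2*).
ATP5G1: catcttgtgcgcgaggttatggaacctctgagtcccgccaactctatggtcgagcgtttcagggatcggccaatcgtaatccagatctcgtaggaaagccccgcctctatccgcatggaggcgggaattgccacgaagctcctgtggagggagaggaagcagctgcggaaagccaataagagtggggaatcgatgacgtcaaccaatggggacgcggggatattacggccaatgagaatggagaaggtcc
ATP5G2: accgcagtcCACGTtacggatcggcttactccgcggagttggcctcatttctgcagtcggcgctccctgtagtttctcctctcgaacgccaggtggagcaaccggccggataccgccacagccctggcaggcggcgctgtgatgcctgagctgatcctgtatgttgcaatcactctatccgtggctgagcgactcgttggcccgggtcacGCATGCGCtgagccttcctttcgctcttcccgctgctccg
ATP5F1: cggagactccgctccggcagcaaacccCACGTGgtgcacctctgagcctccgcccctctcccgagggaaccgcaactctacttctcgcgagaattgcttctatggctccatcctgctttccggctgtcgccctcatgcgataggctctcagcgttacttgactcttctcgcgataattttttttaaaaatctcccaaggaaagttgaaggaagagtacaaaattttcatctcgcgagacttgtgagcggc
UQCRQ: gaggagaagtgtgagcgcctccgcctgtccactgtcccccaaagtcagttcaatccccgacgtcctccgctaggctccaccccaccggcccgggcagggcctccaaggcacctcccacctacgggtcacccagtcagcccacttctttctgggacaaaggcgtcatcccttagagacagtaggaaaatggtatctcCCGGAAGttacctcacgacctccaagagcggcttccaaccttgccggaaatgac
NDUFA12: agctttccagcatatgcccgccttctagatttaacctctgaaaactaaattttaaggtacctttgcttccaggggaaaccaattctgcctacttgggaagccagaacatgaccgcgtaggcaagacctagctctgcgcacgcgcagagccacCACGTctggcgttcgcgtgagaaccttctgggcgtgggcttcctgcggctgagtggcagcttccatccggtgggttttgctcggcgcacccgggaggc
NDUFA2: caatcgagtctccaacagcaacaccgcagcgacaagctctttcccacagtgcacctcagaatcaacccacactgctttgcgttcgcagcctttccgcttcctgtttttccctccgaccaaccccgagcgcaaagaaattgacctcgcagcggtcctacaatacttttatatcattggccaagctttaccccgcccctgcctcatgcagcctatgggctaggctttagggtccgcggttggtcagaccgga

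None of the letters searched is shared by all 6. *ATP5G2* holds GCGCATGC and ACGTG, *ATP5F1* holds ACGTG on both strands in 1 palindrome, *NDUFA12* holds ACGTG and *UQCRQ* holds CCGGAAG, while the windows of *ATP5G1* and *NDUFA2* hold none of them. Promoters were found for 64 of the 79 nuclear subunit genes, and *ATP5G3* and *NDUFA4L2* are among those without an entry. GCGCATGC occurred in 18.8% of these 64 windows and in 2.81% of all 27305 promoter windows of that length, and the longer palindrome that holds this core on both strands in 4.69% and 1.13%. CCGGAAG occurred in 25.0% and 8.82%, AAGATGGC in 1.56% and 1.37%, and ACGTG in 23.4% and 18.7%. With the 50 bases past the start included, which are not shown, AAGATGGC occurred in 17.2% of the 64 windows and in 3.03% of all. Letters in a window are a description and show no binding.

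Counts on genes ranged from 5738340 to 10546786 in ASO_CTRL and from 3686828, in ASO_LINC replicate 3, to 6780016 in ASO_LINC. Of the squamous markers looked at, *KRT5* was at 103 CPM in ASO_CTRL and 69.0 CPM in ASO_LINC, and *KRT6A* had at most 14 reads in a library. KRT14, TP63, DSG3 and SOX2 were looked for and were not among the 17222 gene names. Simple epithelial keratins and mesothelial genes were present (*KRT18* at 5086 and 3688 CPM, *CALB2* at 601 and 154 CPM, in ASO_CTRL and ASO_LINC). *MSLN* was at 29.1 and 31.1 CPM and *WT1* at 46.0 and 36.6 CPM. Of the fibroblast genes *THY1* was at 117 and 104 CPM and *COL3A1* at 10.8 and 3.49 CPM, and *PDGFRA*, *COL1A2*, *LUM* and *DCN* were not among the gene names either. In bulk RNA, fewer cells of a kind and less RNA per cell cannot be told apart.

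Most respiratory chain genes were lower in ASO_LINC, in the median by a small amount. Some differed more, such as *ATP5G1* (log2 fold change -1.19) and *MT-CO3* (log2 fold change -1.13). Of the 136 members tested, 116 had a log2 fold change below 0, against 50.3% of all genes tested, and the median was -0.32, against -0.0027 over all genes. The 136 include 35 names of pseudogenes, whose counts are uncertain. Of these 35, 30 were below 0, 3 were called lower and 13 were lower at an adjusted p below 0.05. The 90 subunits tested had 77 below 0 and a median of -0.32. Of the 136, 10 were called lower and 1 higher, beside 2.63% of all genes called lower and 4.91% called higher. In both directions together the 11 called members are 8.09% of those tested, close to the 7.54% of all genes. That nearness holds for this fit and not for all alternatives, whose shares follow. At an adjusted p below 0.05, with no bound on the fold, 42 members were lower (30.9%, beside 7.78% of all genes) and 1 was higher (0.735%, beside 10.3%), together 43 members beside 18% of all genes. Of these, 36 also passed the bound on the fold, beside 16.8% of all genes. In 59 members all 3 ASO_LINC libraries were below all ASO_CTRL libraries (43.4%, beside 17.3% of all genes). The number of calls depended on the libraries used. Without ASO_LINC replicate 3, the shallowest library, 34 members were called (24.6%, beside 17.2% of all genes). That number was 3 without ASO_CTRL replicate 1 (2.19%, beside 3.32%), ASO_CTRL replicate 3 (2.17%, beside 2.42%), ASO_LINC replicate 1 (2.17%, beside 2.87%) or ASO_LINC replicate 2 (2.19%, beside 3.5%), and 6 without ASO_CTRL replicate 2 (4.38%, beside 3.32%). DESeq2 called 30 members (22.1%, beside 10.9% of all genes), and edgeR with GC and length offsets called 20 (14.7%, beside 11.8%).

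Split by genome, the nuclear subunits had 68 of 77 changes below 0 and a median of -0.32. Of them 6 were called lower (7.79%, beside 2.63% of all genes) and 1 higher (1.3%, beside 4.91%). The mitochondrially encoded subunits had 9 of 13 below 0 and a median of -0.22, with 1 called lower (7.69%, beside 2.63% of all genes). Without ASO_CTRL replicate 2 the latter median was 0.040. By complex, the medians of the nuclear subunits were -0.40 for complex I (36 tested), -0.23 for complex II (4), -0.20 for complex III (8), -0.33 for complex IV (14) and -0.34 for complex V (15). Without ASO_LINC replicate 3 that of complex II was -0.14 and that of complex III -0.30. These medians carry no test between complexes. All nuclear subunits of complexes II and V and 34 of 36 nuclear subunits of complex I were below 0, as were 5 of 8 of complex III and 10 of 14 of complex IV.

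**Figure D1:**
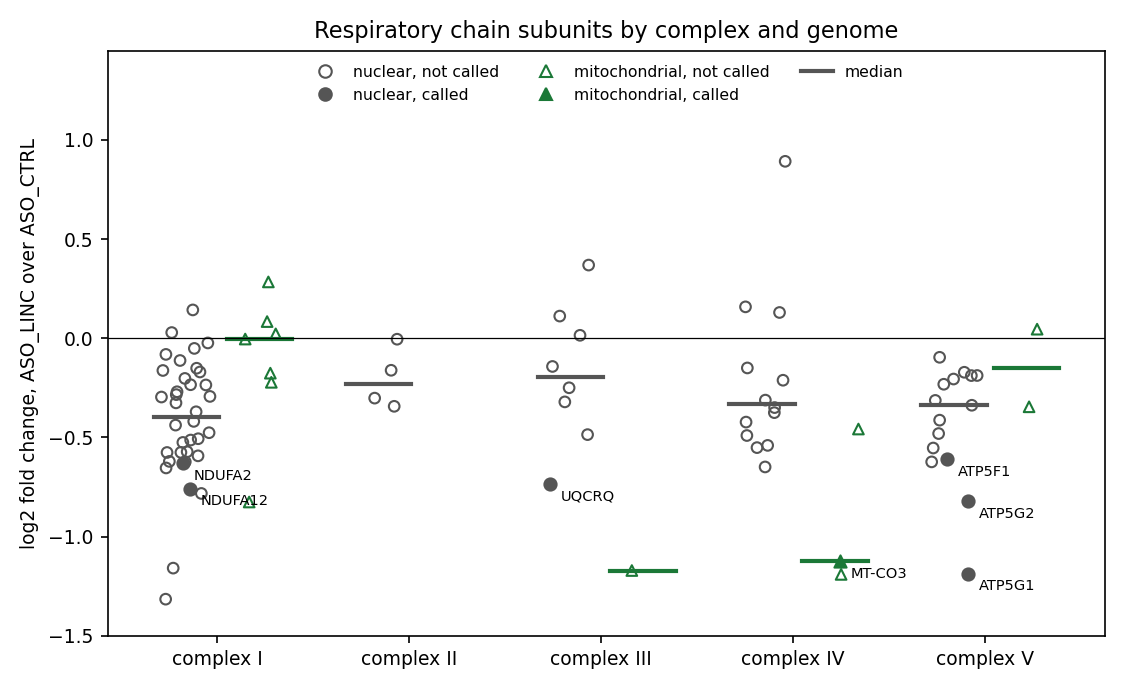
Log2 fold change of each tested subunit (vertical axis, ASO_LINC over ASO_CTRL) by complex (horizontal axis), with nuclear genes as grey circles, mitochondrially encoded genes as green triangles, filled symbols for genes called, and bars for medians. Most symbols lie below 0 in every complex, and NDUFA4L2 of complex IV, at 5.33, lies above the range drawn but enters the median.

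The summed level separated the conditions for both genomes. The 79 nuclear subunit genes together took 18019, 16255 and 17584 CPM in ASO_CTRL and 13778, 14003 and 13250 CPM in ASO_LINC, a log2 ratio of the means of -0.34. The 13 mitochondrially encoded genes together took 20762, 22549 and 20454 CPM in ASO_CTRL and 13522, 12184 and 13692 CPM in ASO_LINC, a log2 ratio of -0.69. In neither sum did the conditions overlap. The mitochondrially encoded share of all subunit reads was 53.5, 58.1 and 53.8% in ASO_CTRL and 49.5, 46.5 and 50.8% in ASO_LINC, again without overlap. Of the nuclear sums by complex, those of complexes I, IV and V were lower in every ASO_LINC library than in any ASO_CTRL library, and those of complexes II and III overlapped. Sums weigh abundant genes most, and they carry no test here.

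**Figure D2:**
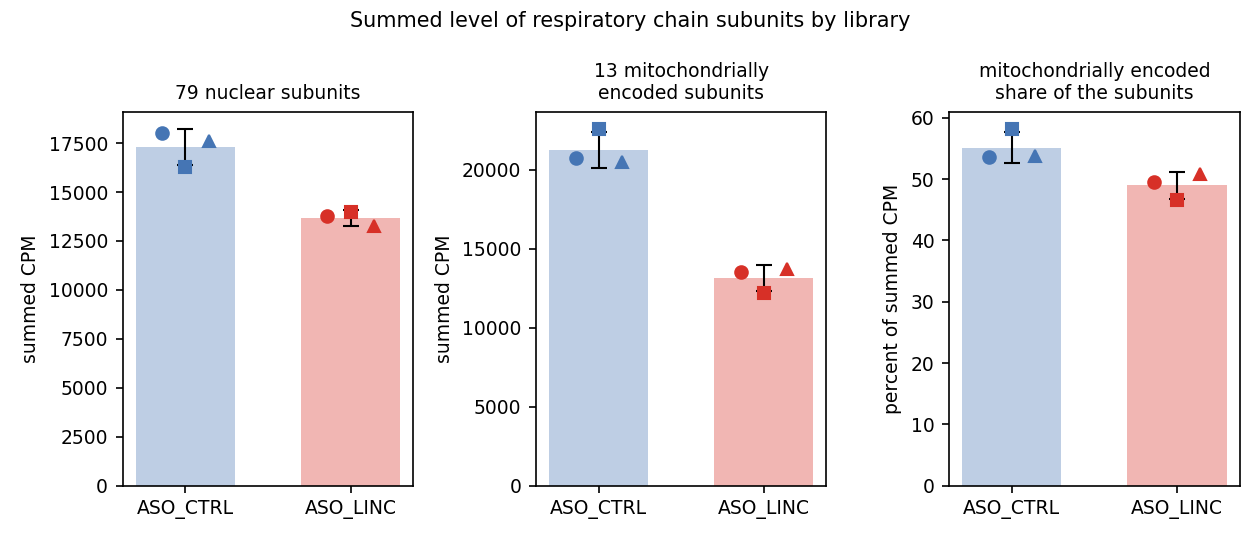
Summed CPM of 79 nuclear and 13 mitochondrially encoded subunit genes and the mitochondrially encoded percentage of the total, by condition, with bars for the mean, error bars for SD (n = 3) and a symbol per library (circle, square and triangle for replicates 1, 2 and 3). Every ASO_LINC library lies below every ASO_CTRL library in all panels.

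Complex I is the largest complex, built from a catalytic core with the flavin and iron-sulfur clusters and from many accessory subunits. Of its nuclear subunits 2 were called lower (5.56%, beside 2.63% of all genes), *NDUFA2* and *NDUFA12*, both accessory. *NDUFA2* (chromosome 5, 140018325 to 140027356, minus strand, GRCh37) was at 175, 155 and 173 CPM in ASO_CTRL and 113, 106 and 106 CPM in ASO_LINC. The conditions did not overlap, and the libraries of ASO_LINC were within a few CPM of each other. Its log2 fold change was -0.63 (SE 0.12, adjusted p = 0.0059). *NDUFA12* (chromosome 12, 95289073 to 95397524, minus strand) was at 226, 153 and 208 CPM in ASO_CTRL and 116, 109 and 122 CPM in ASO_LINC. ASO_CTRL replicate 2 was the lowest control library and still above all knockdown libraries. The log2 fold change was -0.76 (SE 0.16, adjusted p = 0.00853). Both calls were sensitive to the libraries used: *NDUFA2* kept its call in 1 and *NDUFA12* in 2 of 6 fits that each left out 1 library. The gene body of *NDUFA2* overlaps *IK* and *TMCO6* on the opposite strand.

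The remaining nuclear subunits of complex I mostly had the same direction. With *NDUFA2* and *NDUFA12*, 13 of 36 were lower at an adjusted p below 0.05 (36.1%, beside 7.78% of all genes). The others were *NDUFA1*, *NDUFA3*, *NDUFA10*, *NDUFB3*, *NDUFB7*, *NDUFB8*, *NDUFB11*, *NDUFS5*, *NDUFS6*, *NDUFS8* and *NDUFV3*, between -1.32 for *NDUFB3* and -0.44 for *NDUFS5*. *NDUFA3* (log2 fold change -0.58, adjusted p = 0.0106) and *NDUFS6* (log2 fold change -0.57, adjusted p = 0.0146) lay just outside the threshold for a call. *NDUFB3* had few reads, at 57.2, 20.1 and 27.5 CPM in ASO_CTRL and 17.2, 14.4 and 9.76 CPM in ASO_LINC, with ASO_CTRL replicate 1 well above the other controls and no overlap between conditions. *NDUFC2* (log2 fold change 0.14, adjusted p = 0.566) and *NDUFB6* (log2 fold change 0.029, adjusted p = 0.942) were the only nuclear subunits of complex I with a value above 0.

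Among the core subunits that carry the flavin or iron-sulfur clusters or form the quinone site, 6 of 7 were tested and their median was -0.22, against -0.43 over the 30 accessory subunits. *NDUFS8*, which holds 4Fe-4S clusters, was at 162, 156 and 125 CPM in ASO_CTRL and 90.8, 84.5 and 113 CPM in ASO_LINC, without overlap, a log2 fold change of -0.62 (adjusted p = 0.0202). *NDUFS3* had a log2 fold change of -0.51 (adjusted p = 0.0523), *NDUFS7* -0.23 (adjusted p = 0.626) and *NDUFS1* -0.20 (adjusted p = 0.531). The flavin-binding *NDUFV1* had a log2 fold change of -0.081 (adjusted p = 0.85). *NDUFV2* had 2 to 14 reads per library and was not tested. The median of the core genes varied more between knockdown libraries than that of the accessory ones. The median changes of the core genes from the ASO_CTRL mean were -0.44, -0.64 and -0.022 in ASO_LINC replicates 1, 2 and 3. Those of the accessory genes were -0.46, -0.39 and -0.42. Only in ASO_LINC replicate 3 was the core median well above the accessory one. The difference between core and accessory subunits was not tested.

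Complex II, succinate dehydrogenase, links the citric acid cycle to the chain, and none of its 4 genes was called. *SDHA*, the flavoprotein, was at 81.5, 75.4 and 74.2 CPM in ASO_CTRL and 76.6, 66.4 and 87.8 CPM in ASO_LINC, so the ranges overlapped and the log2 fold change was -0.0049 (SE 0.14, adjusted p = 0.986). *SDHB*, the iron-sulfur subunit, had a log2 fold change of -0.16 (adjusted p = 0.376). The membrane anchors *SDHC* and *SDHD* had log2 fold changes of -0.34 (adjusted p = 0.286) and -0.30 (adjusted p = 0.217), *SDHD* with all ASO_LINC libraries below all ASO_CTRL libraries. For *SDHC* and *SDHD*, 73.3% and 66.8% of all 75-base stretches of their exons also occur elsewhere in the genome with at most 1 mismatch, so their counts are uncertain.

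Complex III had 1 of its 8 nuclear subunits called lower (12.5%, beside 2.63% of all genes), *UQCRQ*, a small subunit of the bc1 complex. *UQCRQ* (chromosome 5, 132202322 to 132204539, plus strand) was at 396, 325 and 374 CPM in ASO_CTRL and 217, 219 and 221 CPM in ASO_LINC. The knockdown libraries were nearly equal and all below the controls. Its mean went from 365 ± 36.3 to 219 ± 2.36 CPM (SD, n = 3 libraries each), a log2 fold change of -0.74 (SE 0.12, adjusted p = 0.0028), and the call held in 2 of 6 fits without 1 library. It overlaps *GDF9* on the opposite strand. *UQCRFS1*, the Rieske iron-sulfur protein, was at 259, 248 and 274 CPM in ASO_CTRL and 189.9, 183 and 185 CPM in ASO_LINC, without overlap (log2 fold change -0.49, adjusted p = 0.0157), with 32.7% of its stretches found elsewhere. The core proteins *UQCRC1* and *UQCRC2* had log2 fold changes of 0.11 (adjusted p = 0.822) and -0.14 (adjusted p = 0.478), and *UQCRC1* was highest in ASO_LINC replicate 3 (85.9 CPM) and lowest in the other knockdown libraries. The hinge protein *UQCRH* had a log2 fold change of 0.015 (adjusted p = 0.966), with 40.4% of its stretches found elsewhere. For *UQCRB*, with 36 to 57 reads, the log2 fold change was 0.37 (adjusted p = 0.368). *UQCRHL* was not among the gene names.

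In complex IV, cytochrome c oxidase, the nuclear subunits surround the catalytic core made in mitochondria. None was called lower, and 1, *NDUFA4L2*, was called higher (7.14% of those tested, beside 4.91% of all genes). *COX5B*, which carries zinc, was at 566, 494 and 561 CPM in ASO_CTRL and 421, 403 and 386 CPM in ASO_LINC, without overlap (log2 fold change -0.42, adjusted p = 0.0306). *COX7C* had a log2 fold change of -0.54 (adjusted p = 0.0195), *COX6B1* -0.49 (adjusted p = 0.0323) and *NDUFA4*, a subunit of complex IV despite its name, -0.65 (adjusted p = 0.0252), each without overlap. These 4 were the nuclear subunits of the complex that were lower at an adjusted p below 0.05 (28.6%, beside 7.78% of all genes). *COX4I1* had a log2 fold change of -0.31 (adjusted p = 0.225), where ASO_LINC replicate 3, at 929 CPM, lay within the controls and the other knockdown libraries, at 634 and 594 CPM, below them. *COX5A* had a log2 fold change of -0.15 (adjusted p = 0.543), *COX6A1* -0.38 (adjusted p = 0.0542), *COX6C* 0.13 (adjusted p = 0.839), *COX7A2* -0.55 (adjusted p = 0.12), *COX7A2L* -0.21 (adjusted p = 0.25), *COX7B* 0.16 (adjusted p = 0.854) and *COX8A* -0.35 (adjusted p = 0.188). For *COX6A1*, 83.6% of stretches occur elsewhere. *COX7A1* had 1 to 7 reads and was not tested, and *COX4I2*, *COX6A2*, *COX7B2* and *COX8C* were not among the gene names.

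*NDUFA4L2* is a paralog of *NDUFA4* known as a hypoxia-inducible gene. *NDUFA4L2* (chromosome 12, 57628686 to 57634498, minus strand) had 0, 0 and 3 reads in ASO_CTRL and 28, 18 and 42 reads in ASO_LINC. It was almost absent from the controls and low in all knockdown libraries. The summed counts, scaled by depth, had a ratio of 43.1 with a 95% exact interval of 14.3 to 213 that covers counting error only, and the fitted log2 fold change was 5.33 (SE 0.82, adjusted p = 0.00176), a value that depends on the prior count. *NDUFA4* itself was at 767, 497 and 587 CPM in ASO_CTRL and 447, 395 and 338 CPM in ASO_LINC. The log2 ratio of *NDUFA4L2* to *NDUFA4* (CPM with 0.5 added) was between -10.6 and -9.54 in ASO_CTRL and between -6.79 and -4.83 in ASO_LINC. The call was lost without ASO_CTRL replicate 2 or 3 (highest adjusted p = 0.0109). *NDUFA4L2* overlaps *SHMT2* on the opposite strand. *COX6B2*, the testis form of *COX6B1*, was at 2.15, 1.55 and 2.48 CPM in ASO_CTRL and 3.97, 3.42 and 4.61 CPM in ASO_LINC from 9 to 27 reads, higher in all knockdown libraries but not called (log2 fold change 0.89, adjusted p = 0.0556).

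Complex V had 3 of its 15 nuclear subunits called lower, beside 2.63% of all genes, and all belong to the peripheral stalk and membrane part. *ATP5G1* encodes the c subunit, whose ring turns in the membrane as protons pass. *ATP5G1* (chromosome 17, 46970127 to 46973233, plus strand) was at 274, 264 and 253 CPM in ASO_CTRL and 109.6, 105 and 134 CPM in ASO_LINC. Every knockdown library was far below every control. The mean went from 264 ± 10.9 to 116 ± 15.4 CPM (SD, n = 3 libraries each), a log2 fold change of -1.19 (SE 0.13, adjusted p = 0.000274), and the call held in all 6 fits without 1 library. *ATP5G2* (chromosome 12, 54026510 to 54071192, minus strand) codes for the same mature c subunit, overlaps the pseudogene *RPL31P51* on its own strand and was at 305, 251 and 238 CPM in ASO_CTRL and 135, 131 and 184 CPM in ASO_LINC. ASO_LINC replicate 3 was the nearest to the controls, without overlap, and the log2 fold change was -0.82 (SE 0.16, adjusted p = 0.00672). *ATP5G3*, the remaining gene for the c subunit, was at 816, 902 and 883 CPM in ASO_CTRL and 741, 761 and 554 CPM in ASO_LINC. It was lower in each knockdown library but not called (log2 fold change -0.34, adjusted p = 0.123).

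The ratios within the c subunit family were compared directly. The log2 ratio of *ATP5G1* to *ATP5G3* was -1.57, -1.77 and -1.80 in ASO_CTRL and -2.75, -2.85 and -2.05 in ASO_LINC. The libraries did not overlap and the means differed by -0.84, with p = 0.1 in an exact two-sided permutation test (0.15 after adjustment over 6 ratios of paralogs), and 0.1 is the smallest value that 3 libraries against 3 can give. *ATP5G2* to *ATP5G3* overlapped (difference -0.47, exact permutation p = 0.3, adjusted 0.36), and *ATP5G1* to *ATP5G2* differed by -0.36 without overlap (exact permutation p = 0.1, adjusted 0.15). Of the other ratios, *NDUFA4L2* to *NDUFA4* (3.96) and *COX6B2* to *COX6B1* (1.30) were higher in ASO_LINC without overlap, each with exact permutation p = 0.1 (adjusted 0.15), and *COX7A2L* to *COX7A2* overlapped (0.33, exact permutation p = 0.4, adjusted 0.4).

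The last call in complex V was *ATP5F1*, the b subunit of the peripheral stalk (now ATP5PB). *ATP5F1* (chromosome 1, 111991486 to 112005395, plus strand) was at 379.7, 346 and 381 CPM in ASO_CTRL and 238, 224 and 264 CPM in ASO_LINC. The conditions did not overlap, with a log2 fold change of -0.61 (SE 0.12, adjusted p = 0.00691). It overlaps *WDR77* on the opposite strand, and 21.7% of its stretches occur elsewhere. *ATP5F1* and *ATP5G2* each kept their call in 1 of 6 fits without 1 library. Further peripheral stalk and membrane subunits lower at an adjusted p below 0.05 were *ATP5L* (log2 fold change -0.62, adjusted p = 0.0209), *ATP5J* (log2 fold change -0.55, adjusted p = 0.0346) and *ATP5O* (log2 fold change -0.48, adjusted p = 0.0406). Over the 10 genes of the peripheral stalk and membrane part the median was -0.52. Over the 5 genes of the F1 part, which makes ATP and includes the central shaft, it was -0.19 with none at that threshold. *ATP5A1* and *ATP5B*, which form the catalytic hexamer, had log2 fold changes of -0.17 (adjusted p = 0.519) and -0.19 (adjusted p = 0.296), and *ATP5C1*, the central shaft, -0.31 (adjusted p = 0.127). The difference between the F1 part and the peripheral stalk and membrane part was not tested.

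**Figure D3:**
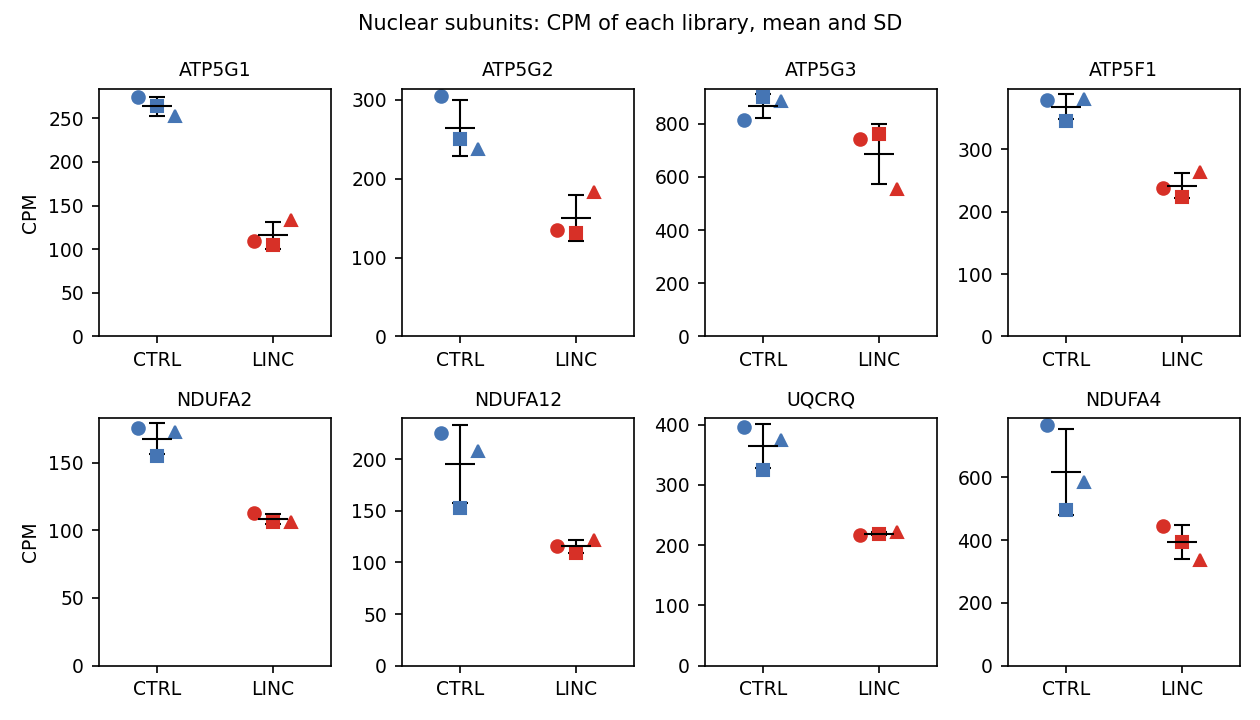
CPM (vertical axes, from 0) of 8 nuclear subunit genes in each library of ASO_CTRL (blue) and ASO_LINC (red), with circle, square and triangle for replicates 1, 2 and 3, long bars for means and error bars for SD (n = 3). In all 8 the ASO_LINC libraries lie below the ASO_CTRL libraries, and for ATP5G1 they lie between 105 and 134 CPM against 253 to 274 CPM.

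The mitochondrial genome is transcribed as long transcripts from both strands that are cut into separate RNAs, so genes of a strand share their synthesis but not their stability. Of its 13 protein-coding genes, *MT-CO3*, a core subunit of complex IV, was called. *MT-CO3* (mitochondrial genome, 9207 to 9990, plus strand) was at 6984, 8313 and 6905 CPM in ASO_CTRL and 3469, 2802 and 3904 CPM in ASO_LINC. All knockdown libraries were far below the controls. Its mean went from 7401 ± 791 to 3392 ± 555 CPM (SD, n = 3 libraries each), a log2 fold change of -1.13 (SE 0.14, adjusted p = 0.000567), and the call held in all 6 fits without 1 library. *MT-CO1*, which holds the oxygen-reducing site, was at 5948, 7175 and 7407 CPM in ASO_CTRL and 5122, 4605 and 5220.2 CPM in ASO_LINC. It too did not overlap, with a smaller log2 fold change of -0.46 (adjusted p = 0.0255). *MT-CO2*, which receives electrons from cytochrome c, was at 916, 269.8 and 133 CPM in ASO_CTRL and 119.8, 126 and 334 CPM in ASO_LINC. ASO_CTRL replicate 1 stood far above the other controls, the conditions overlapped, and the log2 fold change of -1.19 had an SE of 0.60 (adjusted p = 0.201).

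*MT-CYB*, cytochrome b of complex III, was at 2347, 1158 and 1915 CPM in ASO_CTRL and 884, 1059 and 462 CPM in ASO_LINC. The conditions did not overlap, although ASO_LINC replicate 2 lay close under ASO_CTRL replicate 2, and the log2 fold change was -1.17 (adjusted p = 0.0225). *MT-ND4* of complex I was at 1617, 1312 and 801 CPM in ASO_CTRL and 778, 637 and 688 CPM in ASO_LINC. ASO_CTRL replicate 3 was just above the highest knockdown library, and the log2 fold change was -0.83 (adjusted p = 0.0238). Other complex I genes differed less, *MT-ND1* with a log2 fold change of -0.22 (adjusted p = 0.275) and *MT-ND5* with -0.18 (adjusted p = 0.507), both overlapping. *MT-ND6*, the only one of the 13 on the other strand, was at 43.8, 45.1 and 41.6 CPM in ASO_CTRL and 46.6, 39.0 and 46.9 CPM in ASO_LINC, a log2 fold change of 0.022 (SE 0.14, adjusted p = 0.933). The remaining genes overlapped, with log2 fold changes of *MT-ATP6* at -0.35 (adjusted p = 0.637), *MT-ATP8* at 0.046 (adjusted p = 0.967), *MT-ND2* at 0.28 (adjusted p = 0.614), *MT-ND3* at -0.0041 (adjusted p = 0.996) and *MT-ND4L* at 0.084 (adjusted p = 0.927). The 7 genes with a mean of at least 1000 reads were all below 0, with a median of -0.83.

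Counts on mitochondrial genes carry 2 limits. Nuclear copies of mitochondrial DNA share long stretches with them: 43.8% of the 75-base stretches of *MT-CO3*, 62.6% of *MT-CO1*, 57.2% of *MT-CO2*, 73.8% of *MT-ATP6* and 64.05% of *MT-ND2* also occur elsewhere, nearly all on chromosome 1, against 2.06% of *MT-CYB* and 10.97% of *MT-ND4*. The cDNA was primed with oligo-dT, and whether the short tails of these RNAs differed between conditions was not tested.

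**Figure D4:**
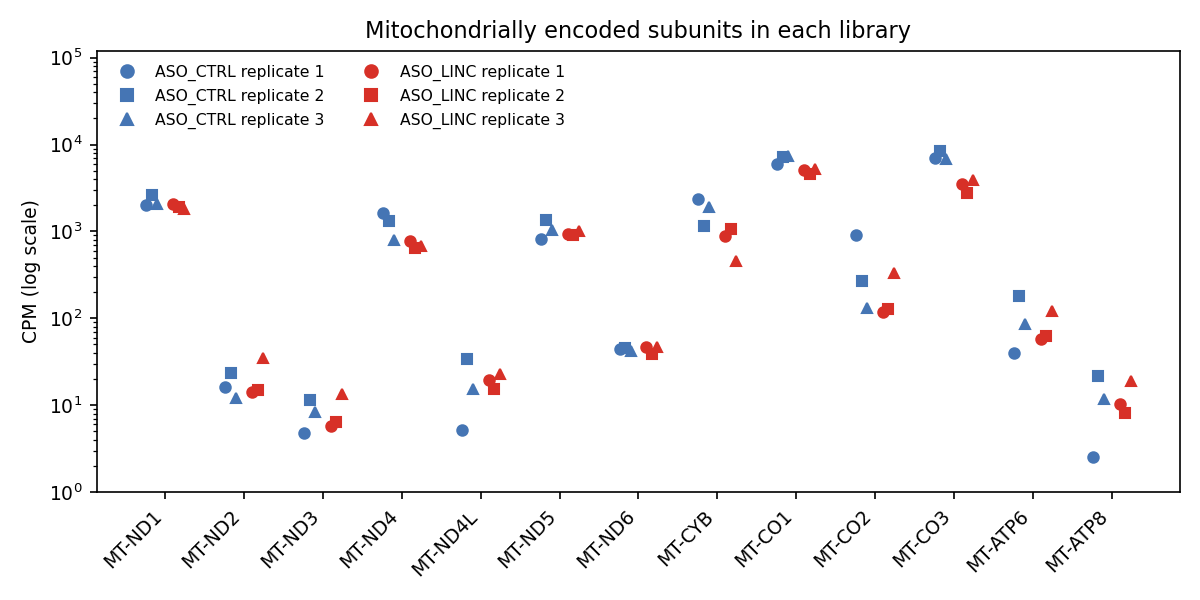
CPM (vertical axis, log scale) of the 13 mitochondrially encoded subunit genes in each library, with ASO_CTRL in blue, ASO_LINC in red, and circle, square and triangle for replicates 1, 2 and 3. MT-CO3, MT-CO1, MT-CYB and MT-ND4 are the genes whose ASO_LINC libraries all lie below the ASO_CTRL libraries, and MT-CO2 in ASO_CTRL replicate 1 stands apart.

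Names of pseudogenes had mostly the same direction as the genes. Of 35 tested, 30 were below 0 (85.7%, beside 50.3% of all genes) and 13 were lower at an adjusted p below 0.05 (37.1%, beside 7.78%). Their median was -0.50, lower than the -0.32 of the nuclear subunits. Called lower were 3 (8.57%, beside 2.63% of all genes): *ATP5C1P1* (log2 fold change -0.87, adjusted p = 0.0065), *ATP5G1P5* (log2 fold change -0.92, adjusted p = 0.0081) and *NDUFS5P3* (log2 fold change -1.56, adjusted p = 0.00658). *ATP5G1P7* had a log2 fold change of -1.30 (adjusted p = 0.02), *COX7A2P2* -1.19 (adjusted p = 0.0332) and *NDUFA5P11* -1.42 (adjusted p = 0.0469), and the 5 above 0 were *ATP5A1P5* (log2 fold change 0.10, adjusted p = 0.856), *ATP5A1P9* (log2 fold change 0.19, adjusted p = 0.795), *NDUFB11P1* (log2 fold change 0.32, adjusted p = 0.509), *COX4I1P1* (log2 fold change 0.25, adjusted p = 0.277) and *COX6A1P2* (log2 fold change 0.17, adjusted p = 0.407). Reads of such copies and of their parent genes may be exchanged in counting, so these are uncertain. Leaving out the nuclear subunits of which over 20% of stretches occur elsewhere left 68, of which 60 were below 0 with a median of -0.31. Among the assembly and coupling factors of the rule, 7 of 9 were below 0 and none was called. *NDUFAF4* had a log2 fold change of 0.60 (adjusted p = 0.0796).

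The gene lists around the chain had medians closer to 0. Of the electron carriers with *CYC1*, 8 were tested and 1 was called higher (12.5%, beside 4.91% of all genes). It was *SQRDL* (log2 fold change 0.62, adjusted p = 0.00919), which feeds electrons from sulfide to coenzyme Q. *CYC1*, the cytochrome c1 of complex III that the name rule does not take, was at 293, 287 and 279 CPM in ASO_CTRL and 162, 131 and 249 CPM in ASO_LINC, a log2 fold change of -0.67 (adjusted p = 0.0434). It was picked after its values were seen. Of 44 assembly factors 1 was called higher (2.27%, beside 4.91% of all genes), *COX19* (log2 fold change 0.73, adjusted p = 0.00382), a copper-handling factor of complex IV. At an adjusted p below 0.05, 5 of these factors were lower (11.4%, beside 7.78% of all genes), and their median was -0.16. Of 13 genes of coenzyme Q synthesis none was called and the median was 0.024. Of 29 genes of mitochondrial transcription and RNA handling none was called and the median was -0.15. *SLIRP*, a partner of *LRPPRC* in keeping mitochondrial mRNAs stable, was singled out after its values were seen, at 187, 53.5 and 85.8 CPM in ASO_CTRL and 37.5, 36.1 and 42.8 CPM in ASO_LINC (log2 fold change -1.49, adjusted p = 0.0179). ASO_CTRL replicate 1 was far above the other controls, and the conditions did not overlap. *LRPPRC* itself had a log2 fold change of -0.22 (adjusted p = 0.33), *TFAM* -0.064 (adjusted p = 0.822) and *POLRMT* 0.076 (adjusted p = 0.884). Of 11 regulators of these genes none was called, with a median of -0.034. *NRF1* had a log2 fold change of -0.74 (adjusted p = 0.0852) from 14 to 59 reads and *GABPA* 0.088 (adjusted p = 0.808). *MYC* had a log2 fold change of 0.57 (adjusted p = 0.0144).

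Genes of the 2 translation machineries were set beside the chain. Mitochondrial ribosomal proteins had 58 of 72 below 0, a median of -0.28, 11 lower at an adjusted p below 0.05 and 1 called, *MRPL24* (log2 fold change -1.18, adjusted p = 0.000838). Cytosolic ribosomal proteins had 60 of 91 below 0, a median of -0.14, 6 lower at that threshold and 2 called lower, *RPS13* (log2 fold change -1.14, adjusted p = 0.00133) and *RPS7* (log2 fold change -0.68, adjusted p = 0.00322). As shares, 15.3% of the mitochondrial and 6.59% of the cytosolic ribosomal proteins were lower at an adjusted p below 0.05 and 1.39% and 2.2% were called lower, beside 7.78% and 2.63% of all genes. The difference between the lists was not tested.

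**Figure D5:**
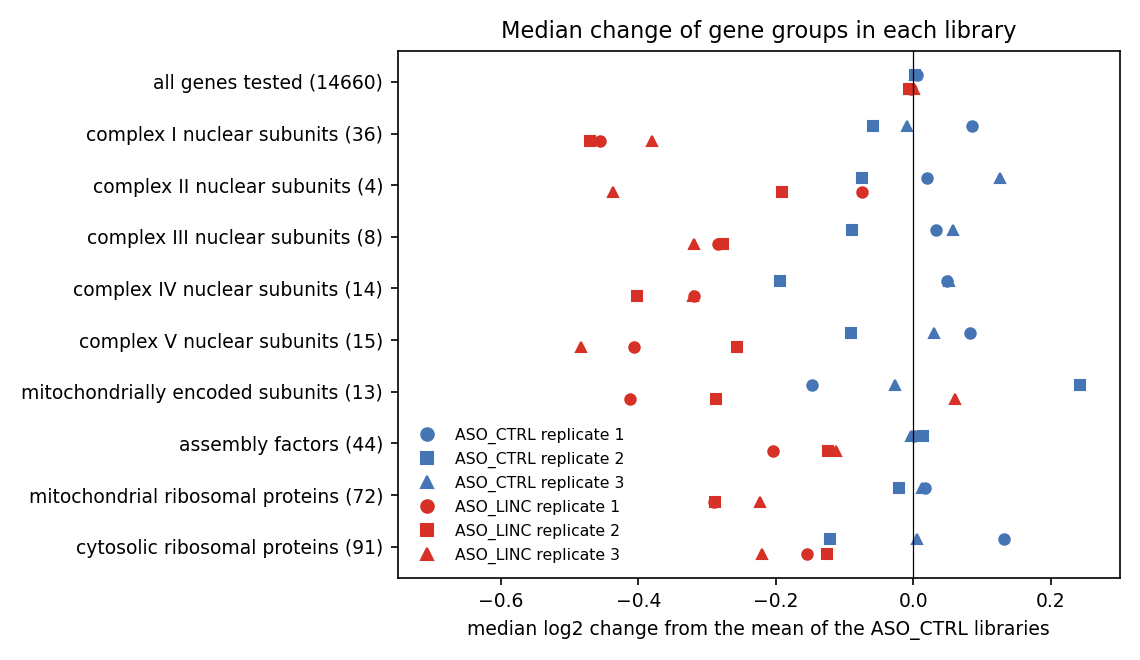
Median log2 change of each gene group in each library from the mean of the ASO_CTRL libraries (horizontal axis), with the number of genes tested in brackets, ASO_CTRL in blue, ASO_LINC in red, and circle, square and triangle for replicates 1, 2 and 3. The ASO_LINC libraries lie to the left of the ASO_CTRL libraries for the nuclear subunits of every complex (for complex II only just) and for the lists drawn, the conditions overlap for the mitochondrially encoded subunits, and all genes tested stay at 0.

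The knockdown libraries differed in which subunits were lowest. Over 76 nuclear subunits (without *NDUFA4L2*), Spearman's correlation of the change in a library with the GC content of the transcript took the values -0.35 (ASO_LINC replicate 1), -0.44 (replicate 2) and 0.43 (replicate 3), as a description over genes that share each library. The 38 subunits above the median GC content of 47.4% had median changes of -0.43, -0.49 and -0.29 in replicates 1, 2 and 3, and the 38 at or below it -0.24, -0.17 and -0.60. Both sets were below 0 in every knockdown library. The part of GC content in these differences was not tested. With the trend on GC content and length removed from each library, 20 members were called in place of 11, beside 11.8% of all genes.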

How the data were processed

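For 6 libraries of H226 cells, from cDNA primed with oligo-dT, the authors mapped single reads of 75 bp with STAR on hg19. The table they deposited holds whole read counts by gene name, neither normalized nor pooled. Which program counted them, on which annotation and whether by strand is not given in the sources used here. The methods name BJ cells where the labels name H226, and the labels were followed. Reads assigned to no gene were left out. They were 24.8, 26.3 and 25.1% of ASO_CTRL replicates 1, 2 and 3, and 28.0, 28.1 and 27.9% of ASO_LINC replicates 1, 2 and 3. The share was thus higher in every ASO_LINC library. Reads outside any annotated feature were 7.65, 8.25 and 7.56% of all reads in ASO_CTRL replicates 1, 2 and 3. In ASO_LINC replicates 1, 2 and 3 they were 8.17, 7.90 and 8.27%, so the conditions overlapped in this part. The remainder, left unassigned for other reasons, was higher in every ASO_LINC library. Whether this bears on the counts of members was not tested. Within each condition all pairs of libraries differed beyond sampling noise, with a chi-square per degree of freedom from 7.66 to 13.0 in ASO_CTRL. In ASO_LINC it was 2.61 between replicates 1 and 2, and 13.8 and 14.8 between these and replicate 3. Each library was taken as 1 replicate, although such differences do not show separate cultures.

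Genes were kept by filterByExpr (14660 of 17222), scaled by TMM and tested in R 4.3.3 with edgeR 4.0.16, by the quasi-likelihood F-test without a block. The common biological coefficient of variation was 0.159. CPM are mean ± SD of 3 libraries, and per-library changes use log2 CPM (prior count 2). Alternatives were DESeq2 1.42.0, limma-voom (limma 3.58.1), other scalings, filters and thresholds, robust dispersion, the replicate number as a block, offsets for GC content and length (splines of 5 degrees of freedom), and leaving out each library. The fit was tested on simulated data. The median of mitochondrially encoded genes was also taken over those with a mean of at least 1000 reads, and that of nuclear subunits without those with more than 20% of shared stretches, the latter chosen after seeing the data.

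Positions, lengths and GC content were read from GENCODE in its lifted GRCh37 form (110 members matched by name, 37 by an older symbol), whose release and mitochondrial sequence need not be those the authors used. Shared stretches are 75-base windows of exons that occur elsewhere in GRCh37 with at most 1 mismatch. Promoters came from RefSeq.

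Members, complexes, gene lists and tests were chosen with earlier results of these data known. Named are the members called, the 2 with the largest change in each direction per complex and genome (mean of at least 10 reads), the mitochondrially encoded, SDH, catalytic and paralog genes, and called genes of the lists. For 1 of these the result is not reported here. Other names were picked after their values were seen.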

Additional observations from a re-analysis of the deposited data

How the results depend on the processing

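The medians of the subunits by genome and by complex kept their direction under all alternatives run, except that of the mitochondrially encoded subunits without ASO_CTRL replicate 2 (range of the fits without 1 library -0.43 to 0.040). The medians of the nuclear subunits ranged in those fits from -0.48 to -0.32 for complex I, from -0.31 (without ASO_LINC replicate 1) to -0.14 (without ASO_LINC replicate 3) for complex II and from -0.30 to -0.17 for complex III. The number of members called, 11, was 30 with DESeq2 (beside 10.9% of all genes), 20 with GC and length offsets, 36 at an adjusted p below 0.05 with the bound on the fold and 43 without it, and from 3 to 34 in the fits without 1 library. With the replicate block it was 4, beside 4.47% of all genes: *ATP5G1*, *MT-CO3* and *NDUFA4L2* kept their calls and *NDUFB3* was added. Libraries with the same number correlated with r = 0.059, -0.15 and -0.18, so the numbers were not taken as pairing. With the remaining alternatives (limma-voom, other scalings, robust dispersion, no filter, a minimum of 10 reads in every library, offsets with the block) 11 to 14 members were called, 7.48% to 10.3% of those tested beside 6.3% to 8.33% of all genes. Depth limits genes of few reads, such as *NDUFV2*, *COX7A1*, *NDUFA4L2* and *COX6B2*. In simulated data a log2 change of 1 was called in 58 of 100 genes. Those were drawn only from genes with a higher mean CPM than these, so that share does not apply to genes of few reads. Smaller changes, which most members have, were not simulated.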

Other observations

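Other RNAs of the mitochondrial genome were also in the table. *MT-RNR2*, the large ribosomal RNA, was at 7291, 2779 and 3612 CPM in ASO_CTRL and 2159, 2133 and 1944 CPM in ASO_LINC. ASO_CTRL replicate 1 stood apart and the conditions did not overlap, with a log2 fold change of -1.13 (adjusted p = 0.0202) in the quasi-likelihood test of edgeR. *MT-RNR1*, the small ribosomal RNA, overlapped, with a log2 fold change of -0.31 (adjusted p = 0.394). Reads counted on *MT-TQ*, a tRNA gene, were lower in ASO_LINC, at 6138, 4709.7 and 5291 CPM in ASO_CTRL and 3382, 3357 and 2269 CPM in ASO_LINC, and it was called (log2 fold change -0.84, adjusted p = 0.0069). The log2 fold change of *MT-TT* was -0.68 (adjusted p = 0.0528), for *MT-TI* -0.56 (adjusted p = 0.0868) and for *MT-TD* -0.27 (adjusted p = 0.508). *MT-TP* was higher in all ASO_LINC libraries, from 16 to 50 reads, but not called (log2 fold change 0.92, adjusted p = 0.0619). Which RNA was counted under the tRNA names was not tested.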
